A study of Oryza sativa with 6 samples.

Results

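Dehydrins, other late embryogenesis abundant (LEA) proteins and drought effectors are the protective end of the rice response to water loss, and 8 of their genes were examined here: the dehydrin genes RAB16A (LOC_Os11g26790), RAB16B (LOC_Os11g26780), RAB16C (LOC_Os11g26760), RAB16D (LOC_Os11g26750) and LIP9 (LOC_Os02g44870), the LEA gene LEA3 (LOC_Os05g46480), the lectin gene SalT (LOC_Os01g24710) and the proline synthesis gene P5CS (LOC_Os05g38150). They were chosen by name, as listed genes of this response, and all 8 were among the 30020 genes of the comparison. The 4 RAB16 genes lie together on chromosome 11, LEA3 and P5CS on chromosome 5, LIP9 on chromosome 2 and SalT on chromosome 1.

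LEA proteins are small, very hydrophilic proteins that accumulate when cells lose water, first described in maturing seeds and later in drought-, salt- and cold-treated leaves and roots. Dehydrins are a family of LEA proteins that carry lysine-rich repeats and are thought to shield membranes and enzymes from drying. Many of their genes, the RAB genes (responsive to abscisic acid) among them, are switched on by the hormone abscisic acid (ABA) through bZIP transcription factors that bind ABA response elements in the promoter, and are low in well-watered leaves. Proline, made from glutamate through the enzyme encoded by P5CS, accumulates as a compatible solute under the same conditions.

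RNA-seq compared 3 libraries of wild-type rice (cultivar Nipponbare) with 3 of the oschz1 mutant, which carries a CRISPR/Cas9-made deletion of a single nucleotide in OsChz1 (allele oschz1-1 in the study, free of the transgene). OsChz1 encodes a histone chaperone with a CHZ domain that binds histone dimers containing H2A or the variant H2A.Z. All seedlings were 30 days old and had grown for 10 days and then 20 days on medium in long days, with a 14 h light period at 30 °C and a 10 h dark period at 28 °C. No drought, salt or ABA treatment was part of the design, so every value below is a level in seedlings given none of these. The mutant is represented by a single allele. Each library pooled several seedlings of whole-seedling tissue, in which fewer cells of a type and less RNA per cell cannot be told apart.

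Reads of single libraries were recovered from the deposited mean counts, fold changes and standard errors (SE), as described under the processing. The genotype of each recovered library is known and its replicate number is not, so that libraries are named A, B and C within a genotype from the deepest to the shallowest. Size factors, the relative depths by which reads are divided to give normalized counts, were 1.59, 0.820 and 0.738 in wild-type and 1.49, 1.19 and 0.596 in oschz1. Chlorophyll-binding CAB1R and the rubisco small subunit gene RBCS, both leaf genes, had mean normalized counts, not corrected for gene length, of 227551 and 23023. The root silicon transporter gene LSI1 had 232, and another root marker, LOC_Os02g44310, had 0.698. The seed glutelin genes GLUA1 and GLUA2 had 0.419 and 161, and the seed markers LOC_Os05g41970 and LOC_Os04g46200 had 0.407 and 2.85. All 3 leaf markers were lower in oschz1 by estimate, at log2 fold changes of -0.21 for CAB1R, -0.09 for RBCS and -0.27 for LOC_Os01g64960, and 1 of the 3, LOC_Os01g64960, passed the adjusted p (DESeq2 adjusted p = 0.00111) under 1.5-fold. Their part in the results below was not tested.

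None of the 8 genes was misregulated in oschz1 at the study's thresholds, which ask for a 1.5-fold change or more together with an adjusted p no higher than 0.05. Of all 25945 genes with an adjusted p, 7.58% passed both thresholds, 6.24% as higher and 1.34% as lower in oschz1. P5CS passed the adjusted p at 1.23-fold, and RAB16A, at 2.49-fold, missed it. A further 5 genes did not pass the adjusted p, and RAB16D, with 5 reads in all, has no adjusted p. At an unadjusted p under 0.05, 2 of the 7 genes tested passed, RAB16A and P5CS, beside 27.0% of all tested genes, so that this count was near the background. Tests are the authors' DESeq2 Wald tests with Benjamini-Hochberg adjustment over all genes that have one, and fold changes are oschz1 over wild-type.

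RAB16A, which encodes an ABA-responsive dehydrin, had 14, 5 and 10 reads in wild-type libraries A, B and C and 37, 32 and 10 in oschz1 libraries A, B and C. Divided by size factors, these were normalized counts of 8.81, 6.10 and 13.6 in wild-type and 24.8, 26.8 and 16.8 in oschz1. All 3 oschz1 libraries were above all 3 wild-type libraries, and the closest pair was oschz1 C and wild-type C. Group means were 9.49 ± 3.77 (SD, n = 3) in wild-type and 22.8 ± 5.30 (SD, n = 3) in oschz1. The fitted log2 fold change was 1.31 (SE 0.52), or 2.49-fold with a 95% interval of 1.24 to 5.01, and the DESeq2 adjusted p was 0.0574. At the SE fitted from its 108 reads, a change of 2.54-fold was needed to pass. The estimate lay just under it, which restates the adjusted p and is not a separate limit of depth. RAB16A had a higher log2 fold change than 94.8% of tested genes. This rank takes no account of the SE: RAB16B, which did not pass, was above 92.5% and RAB16D, with 5 reads, above 84.0%.

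The same separation of libraries was frequent among genes with low counts. Of 4628 genes with mean normalized counts from 2 to 20 whose reads could be recovered, 764 (16.5%) had every oschz1 library above every wild-type library. The separation seen for RAB16A and, below, for LEA3 is thus not rare in this range. Both lie near its upper end, with means of 16.1 and 17.5 and SEs of 0.52 and 0.47. The median SE of the range was 0.81, and the share at their own depth was not computed.

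RAB16B, the next dehydrin gene of the cluster, had normalized counts of 4.41, 9.76 and 5.42 in wild-type, from 7, 8 and 4 reads. In oschz1 they were 12.7, 16.7 and 6.72, from 19, 20 and 4 reads. The groups overlapped, since oschz1 C lay below wild-type B. Means were 6.53 ± 2.84 (SD, n = 3) and 12.1 ± 5.05 (SD, n = 3). The fitted log2 fold change was 0.97 (SE 0.67; DESeq2 adjusted p = 0.383). The interval, from 0.787- to 4.89-fold, included both no change and a severalfold rise. At the SE fitted from its 62 reads, a change of 3.38-fold was needed for a call.

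RAB16C carried most of the reads of the cluster, 749 over the 6 libraries. Its normalized counts were 108, 118 and 152 in wild-type and 101, 120 and 126 in oschz1. The oschz1 values fell inside or just below the range of wild-type, whose highest library was C. The log2 fold change was -0.12 (SE 0.20; DESeq2 adjusted p = 0.786), with an interval from 0.706- to 1.20-fold. Here a 1.5-fold change in either direction lay outside the interval.

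RAB16D was nearly without reads: 0, 1 and 1 in wild-type libraries A, B and C, and 0, 2 and 1 in oschz1 libraries A, B and C. Library A, the deepest of each genotype, held none in either. With 2 reads against 3, the depth-corrected ratio of 1.44 had an exact 95% interval from 0.165 to 17.2, which covers counting error only, and a difference was not detectable at this depth. The 4 paralogs were measured by reads that align to a single place, so reads shared by near-identical stretches are missing from each, and whether reads were counted by strand is not stated.

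**Figure D1:**
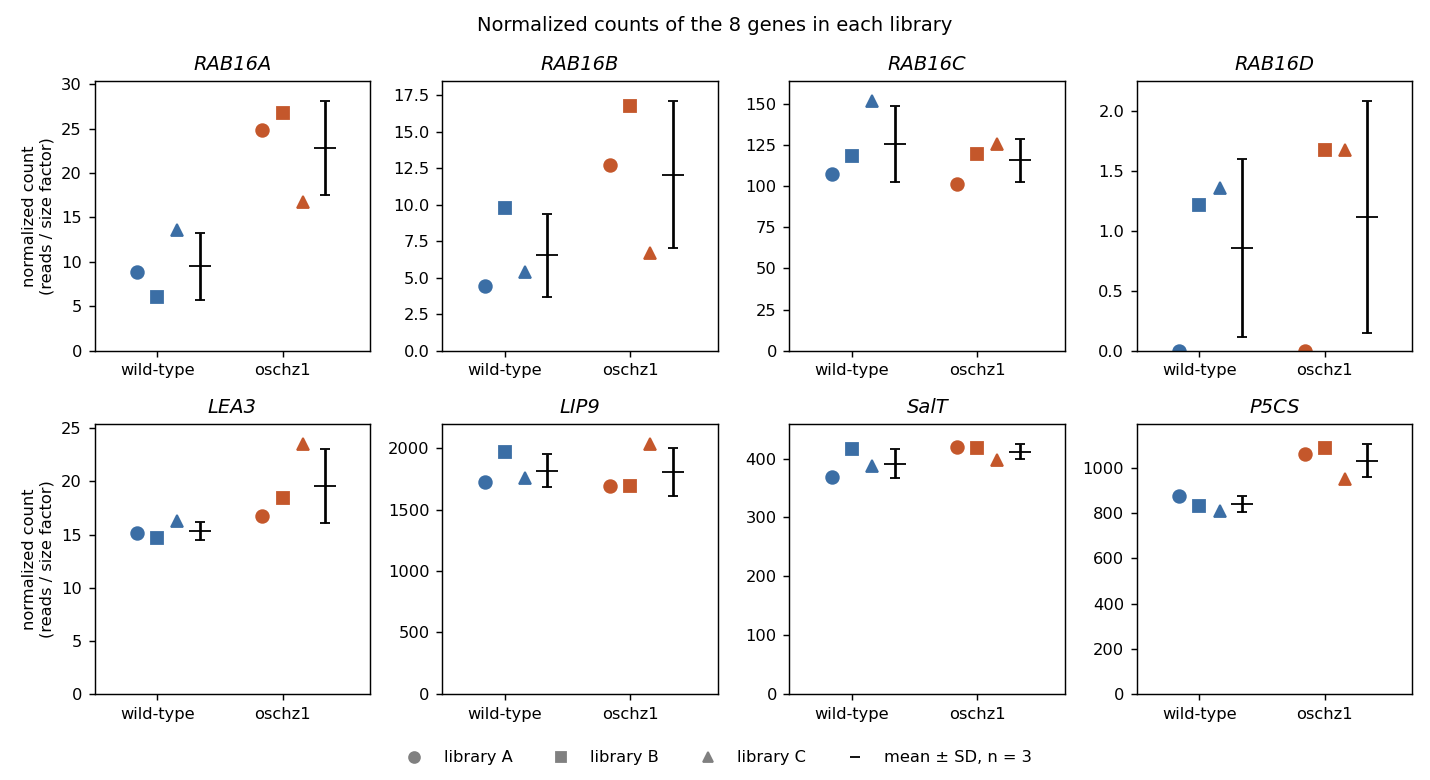
Normalized counts (reads divided by the size factor, linear axes from 0) of the 8 genes in the 3 wild-type (blue) and 3 oschz1 (orange) libraries, with mean ± SD (n = 3) beside each group; symbols mark library A, B or C within a genotype and do not pair libraries across genotypes. The groups separate for RAB16A, LEA3 and P5CS and overlap for the other 5 genes; the share of genes that separate upwards, 16.5%, is known only for means from 2 to 20, which leaves out P5CS.

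LIP9, a dehydrin gene outside the cluster that responds to cold and drought, was the most deeply counted of the 8, with 11410 reads. Wild-type libraries had normalized counts of 1724, 1973 and 1758, and oschz1 libraries 1691, 1695 and 2033. The oschz1 libraries held both the lowest and the highest value, on either side of the whole wild-type range. Means were 1818 ± 135 (SD, n = 3) and 1806 ± 196 (SD, n = 3). The log2 fold change of -0.01 (SE 0.08; DESeq2 adjusted p = 0.945) had an interval from 0.889- to 1.10-fold, the narrowest of the dehydrin genes.

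LEA3, a group 3 LEA gene, had normalized counts of 15.1, 14.6 and 16.3 in wild-type and 16.8, 18.4 and 23.5 in oschz1. The wild-type libraries lay close together, and the lowest oschz1 library was just above the highest of them. Means were 15.3 ± 0.837 (SD, n = 3) and 19.6 ± 3.51 (SD, n = 3). The log2 fold change was 0.32 (SE 0.47; DESeq2 adjusted p = 0.747). From 109 reads, the interval ran from 0.666- to 2.36-fold. At this SE a change of 2.32-fold was needed for a call, so a 1.5-fold rise could be neither called nor set aside.

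SalT, a mannose-binding lectin gene first known for its response to salt in rice, had normalized counts of 369, 417 and 388 in wild-type and 421, 418 and 398 in oschz1. The groups overlapped by a narrow margin, and the 3 oschz1 libraries lay close together, with an SD of 3.02% of the mean. Means were 391 ± 24.4 (SD, n = 3) and 412 ± 12.4 (SD, n = 3). The fitted log2 fold change was 0.08 (SE 0.11; DESeq2 adjusted p = 0.702). The interval, from 0.918- to 1.23-fold, left out a 1.5-fold change.

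P5CS, which encodes the enzyme of the first step from glutamate to proline, was the gene of the 8 with a difference past the adjusted p. Wild-type libraries had normalized counts of 877, 831 and 811, and oschz1 libraries 1060, 1087 and 950. Every oschz1 library was above every wild-type library, and the lowest, oschz1 C, was the shallowest. How often genes of this depth separate in this way was not computed. Means were 840 ± 34.2 (SD, n = 3) and 1032 ± 72.5 (SD, n = 3). The log2 fold change was 0.30 (SE 0.08), or 1.23-fold with an interval from 1.10 to 1.37, and the DESeq2 adjusted p was 0.0018. The whole interval lay under 1.5-fold. An adjusted p of at most 0.05 at any fold change was reached by 18.0% of all tested genes, so that 1 of 7 was near the background.

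**Figure D2:**
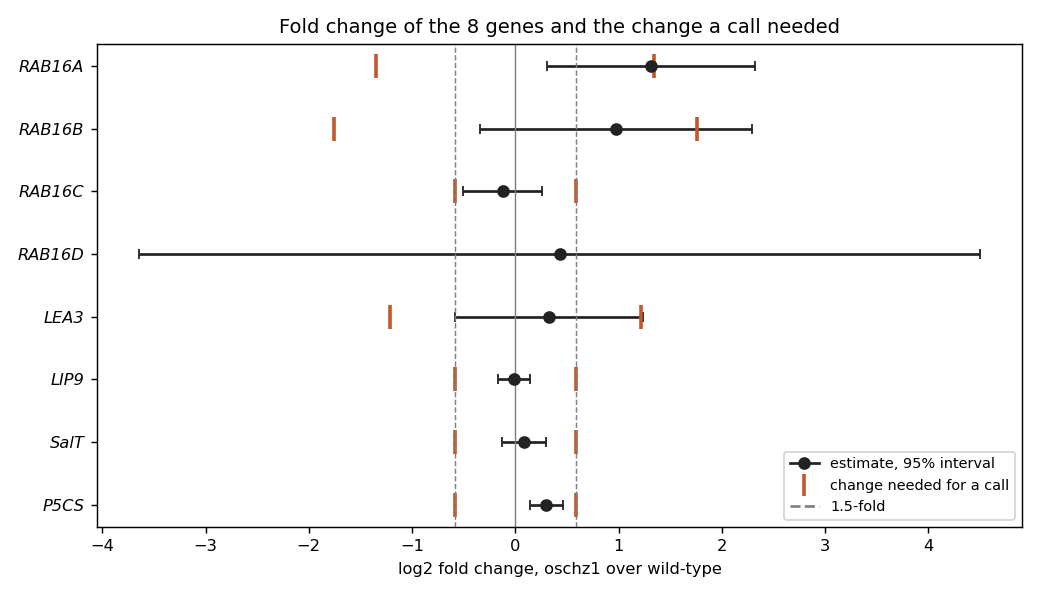
Log2 fold change, oschz1 over wild-type, of the 8 genes with 95% intervals (black); orange bars mark the change needed to be called and dashed lines 1.5-fold. RAB16A lies just inside its bar at 1.31, P5CS lies wholly between 0 and the 1.5-fold line, and RAB16D, which has no adjusted p, has the widest interval.

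The interval width followed the number of reads. The change needed for a call, computed from each gene's own SE, was 2.54-fold for RAB16A, 3.38-fold for RAB16B and 2.32-fold for LEA3. It was 1.5-fold, the limit of the fold threshold itself, for RAB16C, LIP9, SalT and P5CS. Among genes with mean normalized counts from 2 to 20, the median SE was 0.81 and 6.78% were called. From 100 to 500, the range of RAB16C and SalT, they were 0.14 and 8.99%, and from 500 to 2000, the range of LIP9 and P5CS, 0.08 and 3.27%, so that the called share did not follow depth in 1 direction.

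Within oschz1, library C was the lowest of the 3 for RAB16A, RAB16B, SalT and P5CS and the highest for RAB16C, LEA3 and LIP9. Its part in the group differences is given by the values without it. Without oschz1 C, the log2 fold change was 1.46 for RAB16A (unadjusted p = 0.00805 by the refitted Wald test), 1.21 for RAB16B, 0.20 for LEA3 and 0.35 for P5CS. The log2 fold change of RAB16A stayed between 1.11 and 1.60 as each library was left out in turn. Its unadjusted p ran from 0.00678 without wild-type C to 0.0504 without wild-type B, around the largest p that passed among all genes with 6 libraries, 0.00902. That of P5CS stayed between 0.26 and 0.35 and its unadjusted p between 6.62e-05 and 0.00342, under that limit in all 6 fits.

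Differences between the genes were tested in all 28 pairs. Within the RAB16 cluster, the estimates of RAB16A and RAB16C lay furthest apart, by 1.43 on the log2 scale (95% interval 0.35 to 2.51). Of the 28 pairs, 5 had an unadjusted p under 0.05: RAB16A against RAB16C, LIP9 and SalT, and P5CS against LIP9 and RAB16C. No pair passed after adjustment over the 28 pairs, by normal tests on the fitted values and their SEs, and the smallest adjusted p was 0.101. The difference of P5CS from LIP9 was 0.32 (0.09 to 0.54), and that of RAB16A from RAB16B was 0.34 (-1.32 to 2.00), which leaves room for a large difference in either direction. These tests treat the genes as independent although they share libraries.

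Genes that border the RAB16 cluster were read in the order of their locus numbers, 5 on each side. Of these 10, 7 have an adjusted p, and 1, LOC_Os11g26880, rose, with a log2 fold change of 0.81 (SE 0.12; DESeq2 adjusted p = 2.99e-10). LOC_Os11g26860 passed the adjusted p at a log2 fold change of 0.17. Of all tested genes, 7.58% were called, and 18.0% had an adjusted p of at most 0.05 at any fold change. Of the 5 on the side of RAB16D, 2 have an adjusted p and neither passed it.

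The other genes of the response were counted in 5 lists, of LEA genes, osmolyte enzymes, transcription factors, ABA metabolism and ABA signalling. Of 49 tested genes, 2 rose, 1 fell, 6 passed the adjusted p under 1.5-fold and 40 did not pass, a called share of 6.12% beside 7.58% of all genes. The median log2 fold change was 0.09 over these genes, 0.30 over the 7 tested of the 8 and -0.005 over all tested genes. The median of the 7 is the value of P5CS. The estimates above it, of RAB16A, RAB16B and LEA3, had SEs of 0.52, 0.67 and 0.47 and did not pass the adjusted p. Genes that the reference does not name on the chromosome of their locus, or names out of the order of the locus numbers, are given by locus alone.

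Of 4 other LEA genes tested, none was called and 1, LOC_Os03g45280, passed the adjusted p, at a log2 fold change of 0.40 (SE 0.06; DESeq2 adjusted p = 1.06e-10). It was also the 1 gene of this list with an unadjusted p under 0.05, which 27.0% of all tested genes had. The 4 ranged from 0.09 (SE 1.45) for LEA3-2 to 0.73 (SE 0.59) for LOC_Os01g50910. All were positive, as were 5 of the 7 tested genes described above, beside 12758 of all 25945 tested genes.

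Among 11 osmolyte genes, P5CS2, which encodes a second enzyme of the P5CS step, passed the adjusted p under 1.5-fold. Its normalized counts were 183, 182 and 126 in wild-type and 229, 265 and 208 in oschz1, with no overlap. How often genes of its depth separate in this way was not computed. The log2 fold change was 0.51 (SE 0.16; DESeq2 adjusted p = 0.0128), so that both genes for this step were higher in oschz1. LOC_Os07g48830 rose: 127, 107 and 104 in wild-type against 273, 253 and 275 in oschz1, a log2 fold change of 1.22 (SE 0.15; DESeq2 adjusted p = 1.38e-13). LOC_Os03g20120 and LOC_Os10g40360 passed at -0.37 and -0.26, so the list moved in both directions.

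Among 12 tested transcription factor genes, LOC_Os06g10880 rose by 0.80 on the log2 scale (SE 0.15; DESeq2 adjusted p = 2.48e-06). Its normalized counts were 154, 183 and 130 in wild-type and 260, 260 and 297 in oschz1, with no overlap. The share of genes of its depth that separate in this way was not computed. NAC6, a stress-induced NAC factor gene, and LOC_Os03g60080 passed the adjusted p at -0.40 and -0.29. The lowest value, -0.58 (SE 0.71) for DREB1A, which encodes an activator of cold-responsive genes, did not pass.

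Of 7 ABA metabolism genes, LOC_Os07g05940 fell by 1.27 on the log2 scale (SE 0.34; DESeq2 adjusted p = 0.00203). Its normalized counts were 46.6, 47.6 and 54.2 in wild-type and 22.1, 20.9 and 16.8 in oschz1. The other 6 did not pass, up to 0.13 (SE 0.08) for ABA8ox3, which encodes an enzyme that breaks ABA down. None of the 15 ABA signalling genes, which encode phosphatases, kinases and receptors, was called, and 2, PP2C06 and PP2C49, had an unadjusted p under 0.05, beside 27.0% of all tested genes. They ranged from -0.47 (SE 0.64) for LOC_Os05g39580 to 0.47 (SE 0.20) for PP2C49, a phosphatase 2C gene.

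**Figure D3:**
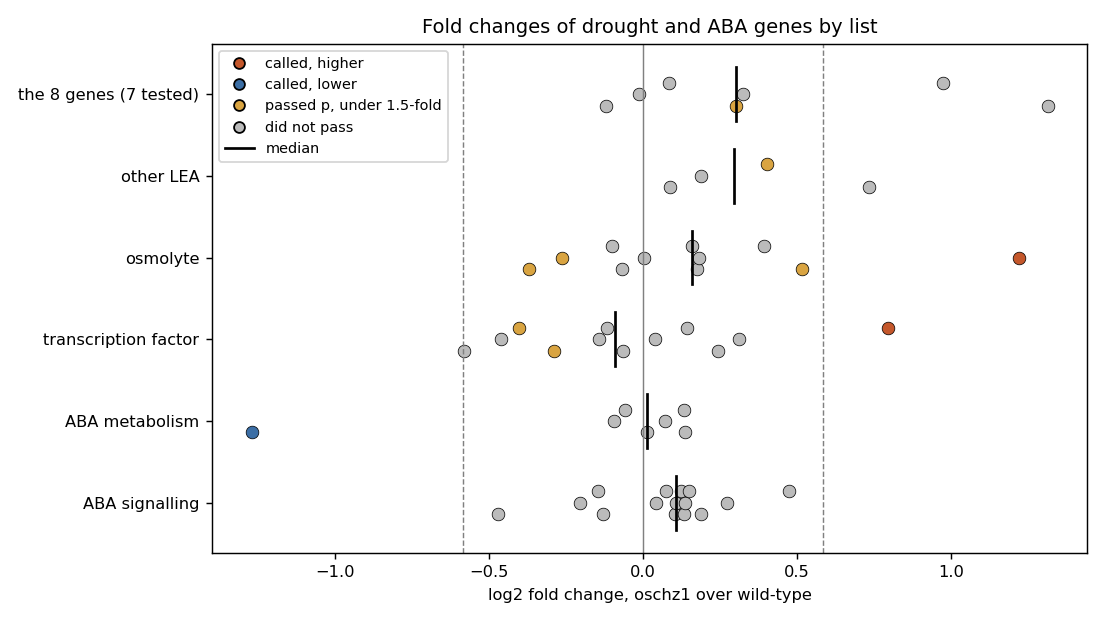
Log2 fold changes, oschz1 over wild-type, of the 7 tested genes described here and of the 49 tested genes in 5 lists of drought and ABA genes; dots are genes coloured by call, black bars list medians, dashed lines 1.5-fold. The called genes are 2 higher (1.22 and 0.80) and 1 lower (-1.27), none of them among the 8 genes.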

How the data were processed

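Poly(A) RNA of 30-day-old seedlings was sequenced in strand-specific libraries, 3 per genotype. Groups follow the genotype labels. According to the study, the authors trimmed reads with cutadapt, aligned them with HISAT2, kept unique alignments with SAMtools, counted them with featureCounts and compared genotypes with DESeq2. Their table of that comparison was used. Mean normalized counts in it are a deposited signal, taken over 6 libraries. Fold changes and SEs were deposited on the log2 scale, the statistic is the authors' Wald score, and the deposited p-values, plain and adjusted, are those of their DESeq2 fit. These comparison columns are the only values given, and all member results rest on them. The header names no numerator. The sign was set so that genes higher in oschz1 outnumber the lower ones, as the study describes. The study calls the 3 libraries of a genotype biological replicates, and the labels do not name separate cultures.

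Each mean adds up whole reads that have a set worth in each library. These 6 worths were read from the smallest means, and a library's genotype from whether genes with reads there alone had positive or negative fold changes. A gene's reads are the whole numbers that give its mean, and whose negative binomial refit gives its log2 fold change (within 1e-09). The refit used the dispersion that gives the deposited SE, since the comparison columns hold no dispersion. That dispersion also had to lie within 0.001, on the log scale, of a modelled value. The model was a dispersion trend and prior fitted to the recovered genes themselves. A single set was found for each of the 8 genes and for 4628 of 4674 genes (99.0%) with means from 2 to 20. For LIP9, searched over a narrower range of reads, the mean and fold change left 13 sets, and the dispersion left 1. The dispersion trend was fitted at means from 2 to 20 and from 100 to 300, below those of SalT, P5CS and LIP9. The reads are thus reconstructed values. Fitted intervals are normal at 95%.

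A call needed a 1.5-fold change or more and an adjusted p no higher than 0.05. The 8 genes and the lists were chosen with earlier results of these data known. Named from the lists, with the leaf, root and seed markers, are called genes, those past the adjusted p, and the highest and lowest tested gene of each list. Symbols and identifiers were paired from general knowledge and checked against the reference gene table of RefSeq (assembly ASM3414082v1), which names all 8 genes and 49 of 72 list entries on the right chromosome and in the order of the locus numbers. The loci paired with EM1, LSI2 and OLE18 are not among the genes of the comparison, so these list entries have no values. No sequence or coordinate is given. Python 3.11.15, numpy 2.4.6, scipy 1.17.1, pandas 2.3.3 and matplotlib 3.10.9 were used.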

Additional observations from a re-analysis of the deposited data

How the results depend on the processing

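The count of the 8 genes called, 0, remained 0 at a 2-fold threshold, at an adjusted p of at most 0.01, with no filter on low counts, with adjustment over genes with means of at least 10, and after centring on genes with means of at least 50. It was 1 with no fold change threshold (P5CS) and 1 at an adjusted p of at most 0.1 (RAB16A). RAB16A had adjusted p-values from 0.0515 to 0.0664 under the changes of filter and centring. Of the other list genes, 3 were called, 9 with no fold change threshold and 2 at a 2-fold threshold, where LOC_Os06g10880 lost its call. Of 28 pairs of the 8 genes, 0 differed after adjustment and 5 without it. Leaving out 1 library at a time, an alternative chosen after seeing the data and run on the recovered reads at the dispersion of the whole fit, turned the sign for genes that were not called: RAB16C ran from -0.23 to 0.03, RAB16D from -0.33 to 1.11 and LIP9 from -0.10 to 0.05. RAB16B ran from 0.68 to 1.37, LEA3 from 0.20 to 0.43 and SalT from 0.04 to 0.13. No paired analysis was possible because the recovered libraries carry no replicate number. Counts of calls without single libraries, and a second count tool, were not run, since reads of all genes would be needed. Depth limits RAB16A, RAB16B, RAB16D and LEA3, which have 5 to 109 reads.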
